A study of Mus musculus with 4 samples.

Results

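The MYC-target and ribosome biogenesis genes described here are a list of 32 genes: nucleolar factors that make and assemble ribosomes, enzymes of polyamine, pyrimidine and nucleotide metabolism, mitochondrial chaperones, a translation factor and a nuclear transport GTPase. All 32 were found among the 27998 genes of the count table by matching symbols to Ensembl identifiers. They held 197398 of 33232250 unique molecular identifiers (UMIs, the molecules counted), or 0.594%. Rrp12, with 148 UMIs, was the only member below the 200 UMIs asked of a gene before its differences were read, which left 31.

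The data are from regulatory T cells (Treg), a CD4 lineage that holds immune responses in check, taken from the thymus of 3-week-old mice. Each of the 4 samples was a CD4+CD8-Thy1.1+GFP+ sort of B6 mice that carry Rag2-Gfp, which marks recently formed T cells, and Foxp3-Thy1a, a Thy1.1 reporter of the Treg transcription factor Foxp3. The samples were IL2 wt/wt, IL2 o/o, IL15 wt/wt and IL15 o/o, 1 of each, and the labels do not say how many mice gave each sample. The study asked how IL-2 and IL-15 shape Treg development and differentiation. Barcodes carry a suffix from 1 to 4, taken here as libraries 1 to 4, but no label ties a suffix to a genotype. The libraries are therefore given one by one, no genotype is compared, and no p-value is given, since cells of a library are not replicates.

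Libraries 1 to 4 held 1609, 2452, 2037 and 2175 cells, with 7890384, 11274713, 5717732 and 8349421 UMIs. Their median cells held 3857, 3640, 2501 and 3019 UMIs, so library 3 was the shallowest. In the 253 cells of library 3 that stand outside the authors' G1 table, the median was 1470 UMIs with 4.71% mitochondrial UMIs, against 2592 UMIs and 2.18% in its G1-table cells. Of all barcodes, 27 occurred under more than 1 suffix. The 10 T and Treg markers were all detected in every state compared, with a summed level between 4608 and 5269 CPM (UMIs of the genes scaled to a total of 1000000 UMIs).

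MYC is a transcription factor that binds DNA with its partner MAX, preferring the hexamer CACGTG known as the E-box. Genes for ribosome production are among its best known targets, and T cells raise Myc and enlarge their nucleoli when the T cell receptor is engaged and cells prepare to grow and divide. Ribosome production starts with RNA polymerase I transcribing the precursor rRNA, which is modified by C/D and H/ACA box ribonucleoproteins, cut and folded in the nucleolus, and packed with ribosomal proteins into the small and large subunits.

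Promoter windows of 300 bases (250 before and 50 after a start site, RefSeq, GRCm38.p6) were found by symbol for 26 of the 32 members. The hexamer CACGTG, which reads alike on both strands, lay in at least 1 window of 7 of these 26 genes (26.9%): Hspd1, Ran, Pes1, Eif5a, Mybbp1a, Nme1 and Apex1. Among all 27025 genes with a window, 8.09% held it. Counted by window, it was in 10 of 36 member windows (27.8%) and in 7.15% of all 32851 windows. Windows of a gene can overlap and are not independent. The Eif5a windows with the hexamer 74 and 185 bases before their starts hold the same copy. The upstream stretches of Ran, Apex1, Eif5a and Nme1 show the hexamer in capitals, and those of Nolc1 and Polr1b, members with large differences below, hold none. Stretches are cut to bases without an annotated GENCODE exon and are written 5′ to 3′ on the gene's strand.
Ran, chr5:129019906-129020068, + strand: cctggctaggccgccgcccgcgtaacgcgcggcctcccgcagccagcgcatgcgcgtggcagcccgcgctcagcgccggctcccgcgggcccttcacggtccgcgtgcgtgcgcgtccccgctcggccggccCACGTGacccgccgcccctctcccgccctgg
Apex1, chr14:50924894-50924948, + strand: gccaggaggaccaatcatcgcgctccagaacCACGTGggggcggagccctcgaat
Eif5a, chr11:69921387-69921636, - strand: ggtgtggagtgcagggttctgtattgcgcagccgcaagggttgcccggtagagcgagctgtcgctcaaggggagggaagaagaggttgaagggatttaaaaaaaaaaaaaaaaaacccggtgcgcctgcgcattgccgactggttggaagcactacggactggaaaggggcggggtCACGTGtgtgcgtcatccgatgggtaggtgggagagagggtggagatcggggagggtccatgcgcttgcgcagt
Nme1, chr11:93968026-93968220, - strand: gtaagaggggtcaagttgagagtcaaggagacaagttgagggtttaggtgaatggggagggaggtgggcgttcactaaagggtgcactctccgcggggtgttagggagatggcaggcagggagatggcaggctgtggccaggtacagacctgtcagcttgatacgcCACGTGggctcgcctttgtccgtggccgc
Nolc1, chr19:46075597-46075846, + strand: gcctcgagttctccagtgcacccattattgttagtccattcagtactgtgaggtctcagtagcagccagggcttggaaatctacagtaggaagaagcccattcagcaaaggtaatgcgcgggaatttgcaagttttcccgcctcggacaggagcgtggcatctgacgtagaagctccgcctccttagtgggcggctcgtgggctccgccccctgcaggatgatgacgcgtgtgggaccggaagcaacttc
Polr1b, chr2:129100746-129100994, + strand: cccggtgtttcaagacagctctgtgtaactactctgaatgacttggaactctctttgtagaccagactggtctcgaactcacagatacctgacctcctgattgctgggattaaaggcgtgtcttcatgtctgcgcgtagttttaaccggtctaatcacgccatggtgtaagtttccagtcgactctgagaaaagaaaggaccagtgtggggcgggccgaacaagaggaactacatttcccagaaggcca

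In the printed stretches the first base of the hexamer lies 118 bases before the start site of Ran, 24 before that of Apex1, 74 before 1 of the Eif5a starts and 29 before 1 of the Nme1 starts. Apex1, which encodes a DNA repair endonuclease, had 3 copies in its window, and 2 of them lay at or after the start. A match describes these letters, and no binding was measured in these samples.

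The summed level of the members was 6124, 6608, 4463 and 5876 CPM in libraries 1 to 4. The highest level was 1.48-fold the lowest, and the exact 95% Poisson intervals of the 4 sums were apart (6070 to 6179 CPM, 6560.4 to 6655 CPM, 4408 to 4518 CPM and 5824 to 5928 CPM). All intervals on levels and ratios cover counting error only, not differences between mice or captures, nor the spread from cell to cell. After thinning (below), the variance of member UMIs per cell was 5.6, 5.9, 5.6 and 5.5 times the mean in libraries 1 to 4. A Poisson count has a variance equal to its mean, so the intervals are too narrow for the sampling of cells. Intervals that lie apart, here and below, separate the counts and not the cells sampled. Library 2 held the highest level of 27 of the 32 members, and library 3 held the lowest of 31. Across the 8071 genes with at least 200 UMIs, library 2 was highest for 31.9%, and library 3 was lowest for 39.1% and highest for 39.9%. The median ratio of highest to lowest library was 1.55 for the members and 1.32 for those 8071 genes.

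Some members differed more than the sum. Ran, the GTPase that drives nuclear transport, was at 621, 664, 338 and 596 CPM in libraries 1 to 4. Nop58, a core C/D box protein that guides rRNA methylation, was at 89.0, 108, 55.6 and 95.6 CPM, spanning 1.94-fold. The H/ACA box proteins Nhp2 (151, 184, 96.4 and 159 CPM) and Gar1 (73, 82.1, 43.4 and 72.7 CPM), which serve pseudouridine formation in rRNA, spanned 1.91-fold and 1.89-fold. For each of these genes the interval of library 3 lay below those of the other 3 libraries, and for Ran and Nhp2 that of library 2 lay above the rest.

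Other members differed less between libraries. Gnl3, a nucleolar GTPase also called nucleostemin, was at 38.2, 47.5, 43.4 and 41.2 CPM and was the member not lowest in library 3. Rrp9, a protein of the U3 ribonucleoprotein that cuts pre-rRNA, was at 33.6, 39.1, 33.6 and 36.3 CPM. For both genes the intervals of libraries next to each other in level overlapped. For Gnl3 those of library 1 (34.0 to 42.7 CPM) and library 2 (43.6 to 51.7 CPM) did not. Myc itself, the gene encoding the factor, was at 82.4, 88.3, 45.1 and 67.3 CPM, again lowest in library 3.

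**Figure D1:**
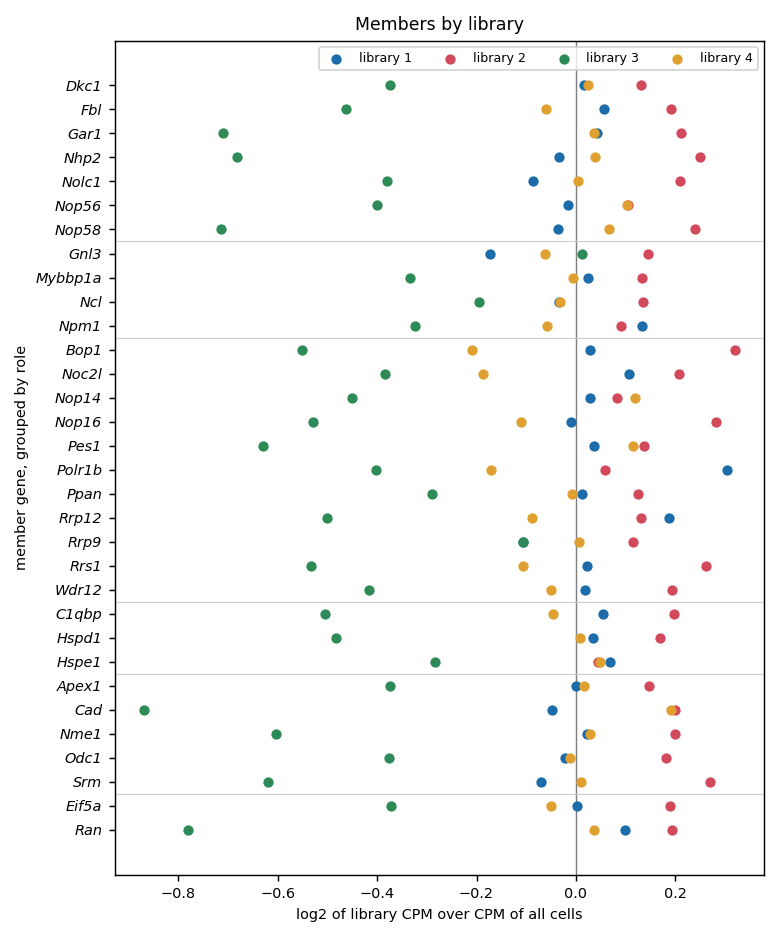
Level of each member in each library as log2 of its CPM over its CPM in all cells (x axis), with members grouped by role (y axis) and 1 point per library. Library 3 lies lowest for 31 of the 32 members and library 2 highest for 27.

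The order held within a narrower set of cells. In cells of the G1 table with no UMI of Nr4a3, Egr2 or Irf4, the summed members were at 5746, 6406, 4383 and 5545 CPM, a 1.46-fold span, with library 3 lowest for 30 members and library 2 highest for 27. When each cell with enough UMIs was thinned to 1811 UMIs, which kept 7447 cells, the levels were 4986, 5468, 3988 and 4970 CPM. Thinning kept 1557, 2317, 1622 and 1951 of the 1609, 2452, 2037 and 2175 cells. In library 3 the share of cells outside the G1 table fell from 12.4% to 5.92%, so the cells kept differ from the full library. At this depth libraries 1 and 4 could not be told apart (intervals 4904 to 5069 CPM and 4897 to 5044 CPM). The median cell then held 7, 8, 5 and 7 member UMIs out of 1811.

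The members took a larger share of the UMIs in cells with more UMIs. Cells were split within each library into 5 groups of like size by their UMIs. From the shallowest to the deepest group, whose median cells held 1816, 2558, 3296, 4449 and 7342 UMIs, the summed members were at 3275, 3699, 4200, 5336 and 8257 CPM. The rise was present in each library. In library 1 the shallowest and deepest groups were at 3132 and 8427 CPM, in library 2 at 3639 and 9067 CPM, in library 3 at 2689 and 6490 CPM, and in library 4 at 3361 and 8059 CPM. Between groups of like median depth the gap between libraries was not constant. A library 3 group with a median of 2068 UMIs was at 3130 CPM. Beside it were library 1 at 3132 CPM and 2104 UMIs, and library 2 at 3639 CPM and 2014 UMIs. At 3016 UMIs library 3 was at 3681 CPM, below library 4 at 4129 CPM and 3019 UMIs. The deepest library 3 group, at a median of 4330 UMIs, was at 6490 CPM, above library 4 at 5337 CPM and 3975 UMIs. That library 3 group has no upper bound on depth and the library 4 group has one, so this pair is not of like depth. A cell with more UMIs can be larger or better captured, and these cannot be told apart here. Since a UMI of any gene is also found more often in a deep cell, the summed members in each split of cells by a detected gene are given below at full depth and at 1811 UMIs. Thinning evens the UMIs counted, but the cells of the states compared can still differ in original depth. Counts over other gene lists and marker sums are at full depth only.

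**Figure D2:**
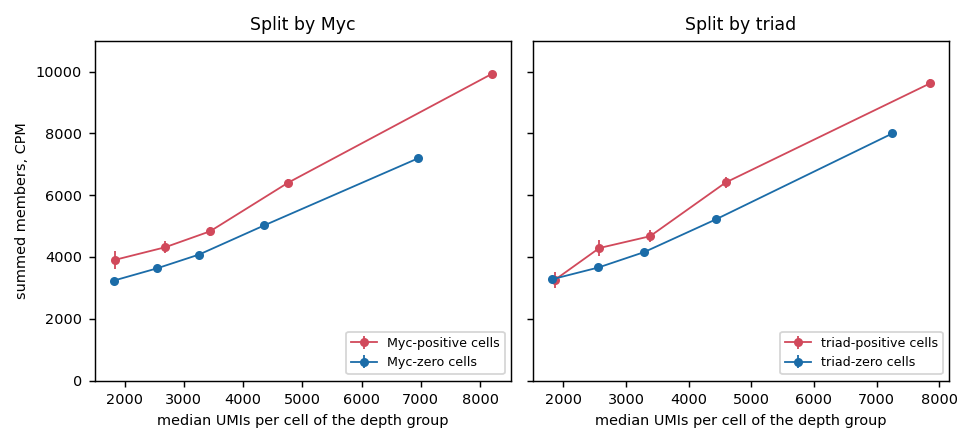
Summed members in CPM (y axis, with 95% Poisson intervals) against the median UMIs per cell of each depth group (x axis), for cells split by Myc (left) and by Nr4a3, Egr2 and Irf4 together (right). The lines pool the libraries. Both lines of each panel climb with depth, and the Myc-positive line lies above the Myc-zero line in all 5 groups. Within libraries, Myc-positive cells were slightly lower in group 2 of library 2 (3860 against 3885.5 CPM). They were also slightly lower in group 1, the shallowest, of library 3 (2669 against 2690 CPM). In the shallowest group of the right panel the positive cells (3251 CPM) lie below the zero cells (3277 CPM).

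Cells with at least 1 Myc UMI held more member UMIs than cells with none. Of 8273 cells, 1438 (17.4%) were Myc-positive: 21.9%, 22.1%, 9.13% and 16.5% in libraries 1 to 4. Their median depth was 4704 UMIs, against 2931 in Myc-zero cells. After thinning, the Myc-positive shares were 10.9%, 11.9%, 6.72% and 9.58%. Among 187 possible double-positive thymocytes (2 or more UMIs over Cd8a, Cd8b1, Rag1 and Dntt), the share was 19.3% at a median of 4310 UMIs.

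The summed members were at 8211, 8638, 8292 and 7784 CPM in the Myc-positive cells of libraries 1 to 4 and at 5229, 5759.5, 3908 and 5299.9 CPM in the Myc-zero cells. No Myc-zero value reached a Myc-positive one. Library 3, lowest in the Myc-zero cells, lay within the range of the other libraries in the Myc-positive cells. The ratio over the libraries was 1.56-fold (log2 0.64, 95% counting interval 0.63 to 0.65). A call needed 200 UMIs or more, a difference of 1.5-fold or more whose interval left out equality, and 1 direction across all libraries in which both states held 20 cells or more. By this rule 25 of 31 members were higher and 0 were lower, where 4.23% of the 8071 genes were called higher and 3.43% lower. The median log2 ratio was 0.83 for the members and -0.03 for all genes tested.

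All 5 members of polyamine, pyrimidine and nucleotide metabolism and DNA repair were called higher. Srm, spermidine synthase, had the largest difference of any member with at least 200 UMIs: 112, 139, 151 and 121 CPM in Myc-positive cells and 43.5, 56.6, 28.2 and 51.6 CPM in Myc-zero cells (2.63-fold, log2 1.40, 1.28 to 1.52). Odc1, ornithine decarboxylase and the first step of polyamine synthesis, was at 60.8, 67.4, 99.5 and 66.2 CPM against 29.2, 35.0, 20.2 and 30.7 CPM, or 2.23-fold. The lowest Myc-positive library exceeded the highest Myc-zero library for both genes. Cad, the enzyme that begins pyrimidine synthesis, was 1.98-fold higher from few counts (12.0 against 5.79 CPM), Apex1 was 1.85-fold higher, and Nme1, a nucleoside diphosphate kinase, 1.64-fold.

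Of the 11 members for pre-rRNA transcription and subunit assembly, 10 had enough UMIs and 8 were called higher. Polr1b, the second largest subunit of RNA polymerase I, was at 13.5, 11.4, 9.67 and 9.82 CPM against 5.61, 4.78, 4.21 and 4.52 CPM (2.34-fold). Nop16 (2.09-fold), Rrp9 (2.05-fold), Ppan (2.03-fold), Wdr12 (1.92-fold), Rrs1 (1.86-fold), Noc2l (1.66-fold) and Nop14 (1.63-fold) were also called. Wdr12 works in a complex with Pes1 and Bop1 that matures the large subunit, yet those partners were not called. Pes1 was 1.46-fold and Bop1 1.27-fold higher, and Bop1 was at 32.6 CPM in both states of library 4. Rrp12 was at 7.43 against 3.46 CPM, below the count needed for a call.

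Of the 7 members of the C/D and H/ACA box ribonucleoproteins, 6 were called higher. Nolc1, a phosphoprotein that carries these particles to the nucleolus, was at 94.1, 108, 131 and 90.5 CPM against 45.1, 58.9, 36.8 and 55.7 CPM, or 1.97-fold. Nop58 was 1.98-fold, Nhp2 1.81-fold, Gar1 1.76-fold, Nop56 1.70-fold and Dkc1, the pseudouridine synthase, 1.60-fold higher. Fbl, the methyltransferase of the C/D particle, was 1.47-fold higher and missed the fold asked.

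Of the 4 nucleolar scaffold and chaperone proteins, 3 were called: Gnl3 (2.14-fold), Mybbp1a (1.68-fold) and Ncl (log2 0.59), which encodes nucleolin. Npm1, nucleophosmin, was at 1787, 1697, 1513 and 1481 CPM against 1214, 1198, 938 and 1132 CPM, or 1.42-fold. Among the mitochondrial proteins, the chaperonin Hspd1 (1.82-fold) and C1qbp (1.73-fold) were called, and the co-chaperonin Hspe1 was 1.41-fold higher. Ran was 1.57-fold higher and was called, and the translation factor Eif5a, which carries the hypusine made from spermidine, was 1.44-fold higher. Npm1, Hspe1, Ran, Eif5a, Hspd1 and Nme1 have near-identical copies or an adjoining gene in the genome, and shared reads could lower or add to their counts, so their levels are uncertain.

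**Figure D3:**
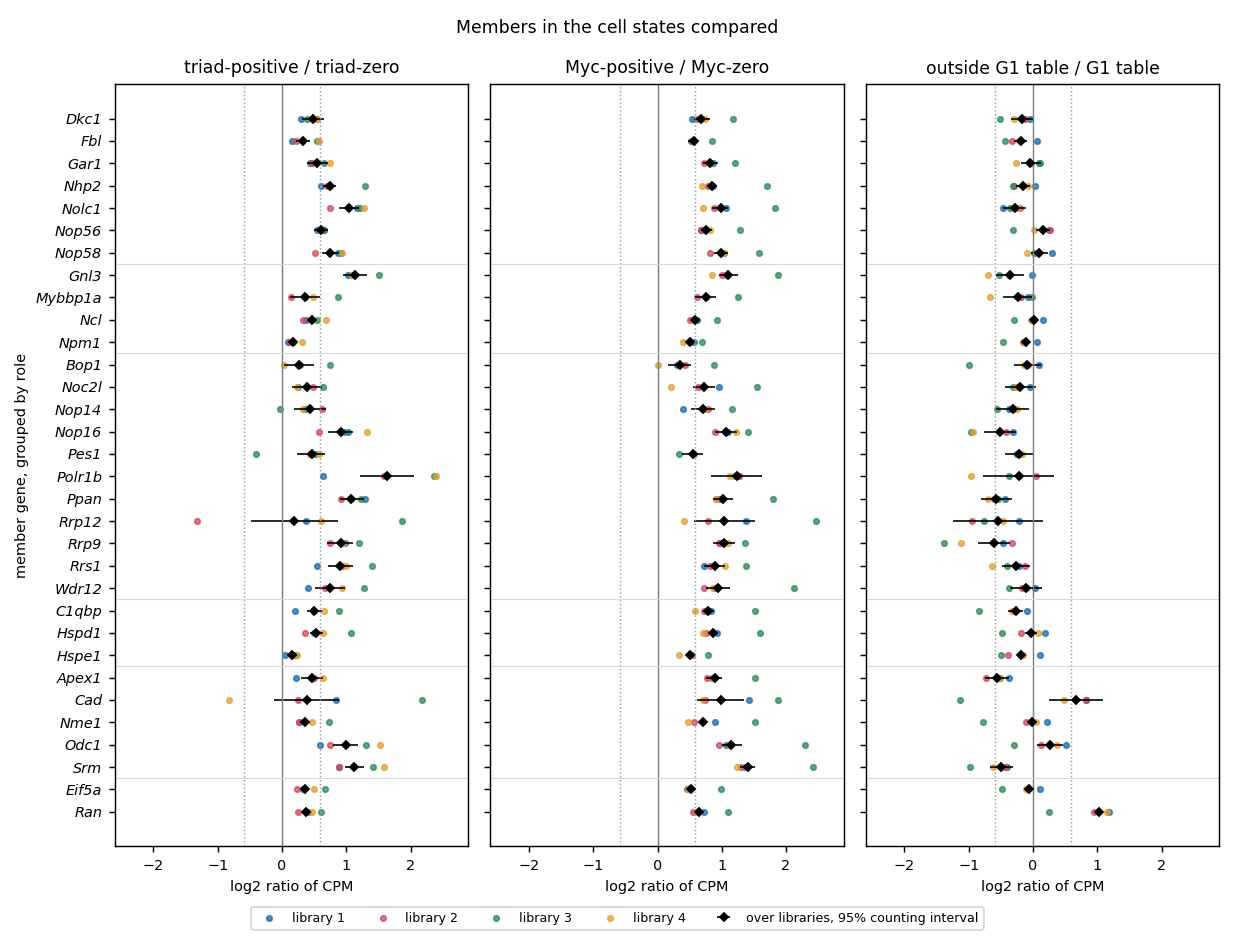
Log2 ratio of CPM (x axis) of each member (y axis, grouped by role) in 3 comparisons of cell states. Coloured points are the libraries, black diamonds the ratio over the libraries with its 95% counting interval, and dotted lines mark 1.5-fold. All diamonds of the Myc panel lie right of 0. In the G1 panel Ran (log2 1.03) lies furthest right. Cad (log2 0.67, 0.25 to 1.09) also lies past the 1.5-fold line, but it was lower in library 3 and was not called.

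The difference grew with the number of Myc UMIs. Cells with 0, 1, 2 and 3 or more Myc UMIs held the summed members at 5152, 7456, 8859 and 9987 CPM. In library 3 the levels were 3908, 6777, 11196 and 12884 CPM, the steepest series of the 4 libraries, from 1851, 144, 27 and 15 cells. Libraries 1 (5229, 7563, 7561 and 9945 CPM) and 2 (5759.5, 7811, 9314 and 9912 CPM) climbed less. Depth climbed too, from a median of 2931 UMIs in cells without Myc UMIs to 4208, 5099 and 6793.

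At 1811 UMIs per cell the difference was smaller and kept its direction. The summed members were at 6509, 6574, 6236 and 6130 CPM in the Myc-positive cells of libraries 1 to 4 and at 4799, 5319, 3826 and 4847 CPM in the Myc-zero cells, and the groups did not overlap. The ratio was 1.32-fold (log2 0.40, 0.37 to 0.43), and 13 of 29 members with enough UMIs were called, where 2.23% of 5923 genes were called higher. They included Odc1 (2.39-fold), Gnl3 (2.30-fold), Srm (2.06-fold), Ppan (1.99-fold) and Nolc1 (1.87-fold). Comparing only cells of the same depth group gave a log2 ratio of 0.37 with 14 members called and 2.11% of genes called higher. By the number of Myc UMIs among the 1811, the levels were 4750.4, 6261, 6696 and 7812 CPM, from 6706, 596, 111 and 34 cells. Single libraries did not climb at every step. Library 1 was at 6529 CPM with 1 and 6054 CPM with 2 Myc UMIs. Library 2 was at 6825 CPM with 2 and 5862 CPM with 3 or more, the latter from 13 cells. Before thinning, these Myc-positive cells had a median of 3995 UMIs against 3290 in the Myc-zero cells. Along the series of Myc UMIs the median was 3290, 4005, 3973 and 4015 UMIs. The part of original depth in the thinned differences was not tested.

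**Figure D4:**
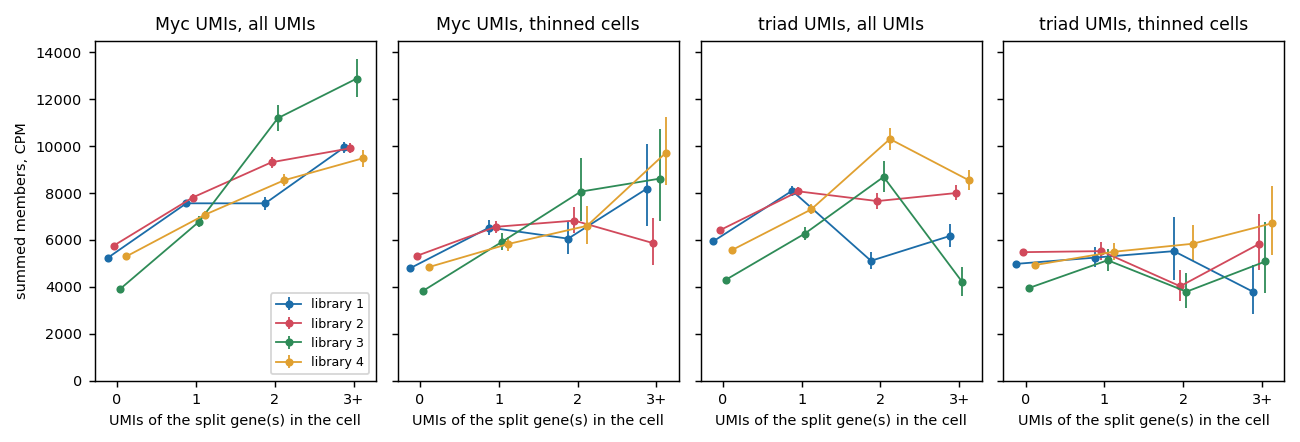
Summed members in CPM (y axis, 95% Poisson intervals) by the number of UMIs of Myc, or of Nr4a3, Egr2 and Irf4 together, in the cell (x axis), at full depth and after thinning to 1811 UMIs. Each library is higher at 3 or more Myc UMIs than at 0 in both Myc panels, though for library 2 the thinned intervals overlap. Thinned cells with 3 or more triad UMIs lie within 3796 to 6705 CPM. Over all libraries the thinned cells with 3 or more UMIs number only 34 for Myc and 29 for the triad.

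Nr4a3, Egr2 and Irf4 are genes induced by T cell receptor signals, and a cell with at least 1 UMI over the triad is called triad-positive here. Such cells numbered 730 (8.82%): 9.57%, 10.2%, 6.14% and 9.29% of libraries 1 to 4. Their median depth was 4015 UMIs against 3085 in triad-zero cells. Among the 187 possible double-positive thymocytes the share was 6.42% (3.36% to 10.9%, Clopper-Pearson) at a median of 4310 UMIs, an interval that holds the 8.82% of all cells. At 1811 UMIs the shares were 4.95%, 4.96%, 4.56% and 5.79%, so the lower share in library 3 was not detectable there. Myc UMIs were in 41.4% of triad-positive and 15.1% of triad-zero cells, and Myc was at 175 against 61.3 CPM (2.75-fold).

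The summed members were at 7458, 7988, 6529 and 8106 CPM in triad-positive cells and at 5943, 6408, 4302 and 5574 CPM in triad-zero cells. Each library was higher in its positive cells, by a ratio of 1.32-fold over libraries (log2 0.40, 0.39 to 0.42). Of 31 members, 13 were called higher and 0 lower, where 3.61% of all genes were called higher and 2.78% lower. The median log2 ratio was 0.49 against -0.01 for all genes, and the ratio was above 0 for all 32 members.

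The members for pre-rRNA transcription and assembly held 6 of the 13 called. Polr1b was at 11.6, 16.1, 19.4 and 20.1 CPM in triad-positive and 7.49, 5.38, 3.77 and 3.81 CPM in triad-zero cells (3.11-fold, log2 1.64, 1.21 to 2.06). Ppan (2.12-fold), Nop16 (1.88-fold), Rrp9 (1.88-fold), Rrs1 (1.87-fold) and Wdr12 (1.68-fold) were the others. Of the 7 ribonucleoprotein members 4 were called: Nolc1 at 117, 114, 104 and 132 CPM against 52.0, 67.6, 44.5 and 54.5 CPM (2.05-fold), Nop58 (1.68-fold), Nhp2 (1.67-fold) and Nop56 (1.53-fold).

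Gnl3, at 68.7, 89.0, 109 and 77.3 CPM against 34.0, 41.5, 38.3 and 36.3 CPM (log2 1.13), was the 1 scaffold protein called. Srm (2.18-fold) and Odc1 (1.98-fold) were the 2 enzymes called. Srm was at 107, 135, 104 and 165 CPM against 58.2, 73.2, 39.0 and 54.5 CPM, with no overlap between the states. Npm1 was 1.12-fold, Hspe1 1.12-fold, Eif5a 1.29-fold and Ran 1.29-fold higher, and none was called.

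At 1811 UMIs the log2 ratio of the sum was 0.10 and 2 members were called, Nolc1 (0.79) and Odc1 (0.86), where 2.79% of genes were called higher. Within depth groups the ratio was 0.23 and 9 members were called, Polr1b (1.44), Gnl3 (1.00), Ppan (0.99), Nolc1 (0.89), Srm (0.89), Rrp9 (0.81), Rrs1 (0.80), Odc1 (0.76) and Nop16 (0.73), where 3.1% of genes were called higher. With the number of triad UMIs the libraries took different courses, but few cells held more than 1. Libraries 1 to 4 had 27, 44, 23 and 38 cells with 2 triad UMIs, and 19, 45, 11 and 32 with 3 or more. Whether the courses differ beyond the spread from cell to cell was not tested. From 0 to 3 or more UMIs, library 1 was at 5943, 8098, 5109 and 6168 CPM, library 2 at 6408, 8073, 7658 and 8001 CPM, library 3 at 4302, 6269, 8691 and 4193 CPM, and library 4 at 5574, 7299, 10306 and 8549 CPM. Over all cells the level was 5710.4, 7679.5, 8031 and 7603 CPM at 0, 1, 2 and 3 or more. After thinning it was 4895, 5381, 4728 and 5350.4 CPM, the last 2 from 64 and 29 cells.

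Taken one at a time, the 3 genes gave different results, and the depth of their positive cells differed too. At full depth the median was 5353 UMIs in Irf4-positive, 4116 in Nr4a3-positive and 3386 in Egr2-positive cells. In cells without a UMI of each gene it was 3111, 3112 and 3136. The part of depth in the full-depth ratios below was not tested. Irf4 encodes a transcription factor that scales with receptor signal strength, and its 187 positive cells held the summed members at 9684, 10168, 8789 and 9597 CPM against 5962, 6424, 4396 and 5729.9 CPM in Irf4-zero cells. The log2 ratio was 0.71 (0.68 to 0.74), with 24 members called higher, where 6.78% of genes were called. Polr1b (3.61-fold), Odc1 (3.07-fold), Srm (2.99-fold) and Ppan (2.84-fold) led. At 1811 UMIs the log2 ratio was 0.59 (0.50 to 0.69) and 16 members were called, where 6.94% of genes were, but only 70 cells were positive and library 2 alone had 20 or more.

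Nr4a3 encodes an orphan nuclear receptor. Its 344 positive cells held the summed members at 7061, 8053, 7471 and 8766 CPM against 6076, 6517, 4336 and 5699 CPM. The log2 ratio was 0.43 (0.40 to 0.45), with 14 members called where 4.45% of genes were. Polr1b (4.37-fold) and Gnl3 (2.81-fold) were highest in ratio. At 1811 UMIs the levels were 5925, 5458, 4731 and 6962 CPM against 4970, 5468, 3971 and 4917 CPM, so library 2 showed no difference. The log2 ratio over libraries was 0.25 (0.19 to 0.32) with 2 members called, Nolc1 (2.50-fold) and Nop58 (1.73-fold), where 3.85% of genes were called higher.

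Egr2 encodes a zinc finger factor that limits T cell activation. Its 318 positive cells held the members at 5175, 6026, 3648 and 6939 CPM against 6163, 6637, 4484 and 5818 CPM: lower in libraries 1 to 3 and higher in library 4. The log2 ratio was -0.05 (-0.08 to -0.02) and 0 members were called higher, where 1.45% of genes were. At 1811 UMIs all 4 libraries were lower in the 178 Egr2-positive cells (3835, 3789.5, 3681 and 4175 CPM against 5014, 5506, 3995 and 4994 CPM). There the log2 ratio was -0.35 (-0.43 to -0.26), and Nop56 (0.65-fold) and Apex1 (0.53-fold) were called lower, where 1.33% of genes were. Myc was nonetheless 2.10-fold higher in Egr2-positive cells at full depth and 2.23-fold higher at 1811 UMIs. Before thinning, these Egr2-positive cells were the shallower ones, at a median of 2952 UMIs against 3360 in the Egr2-zero cells. Irf4-positive and Nr4a3-positive cells were the deeper ones, at 4222 against 3347 UMIs and 3495 against 3351 UMIs. The part of original depth in these thinned ratios was not tested. The differences among the 3 genes were not tested, since the positive cells overlap and no sample is replicated.

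**Figure D5:**
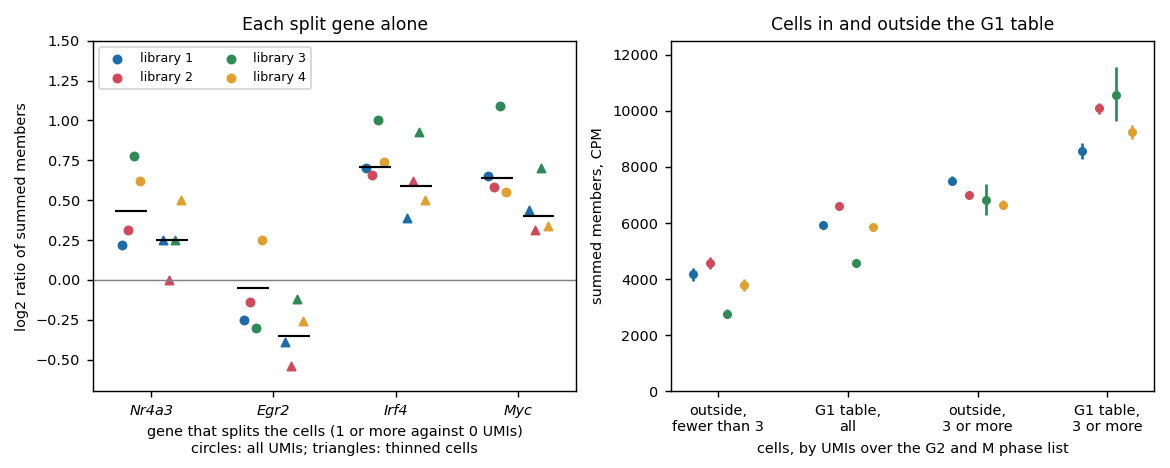
Left: log2 ratio of the summed members between cells with and without a UMI of each gene (x axis), per library (points) and over libraries (bars), at full depth (circles) and at 1811 UMIs (triangles), with Egr2 alone below 0 in all 4 libraries after thinning. Right: summed members in CPM (95% Poisson intervals) in G1-table and other cells, split by 3 or more UMIs over the G2 and M phase list, where cells outside the table with fewer than 3 lie lowest in each library.

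The triad was then crossed with Myc. Cells with neither were at 5077 CPM (6407 cells), with triad UMIs alone at 6099 CPM (428 cells), with Myc UMIs alone at 8001 CPM (1136 cells) and with both at 9221 CPM (302 cells). In every library the Myc-only cells exceeded the triad-only cells: 8028 against 5724 CPM, 8464 against 6424 CPM, 7801 against 3984 CPM and 7254 against 6926 CPM. In library 4 the intervals of the pair overlapped (7117 to 7392 CPM and 6705 to 7151 CPM). The median cell with neither held 2914 UMIs, with triad UMIs alone 3270, with Myc UMIs alone 4514 and with both 5228, so depth moved with these levels. At 1811 UMIs the 4 levels were 4739, 4984, 6395 and 6420.0 CPM, from 6402, 304, 666 and 75 cells, and the intervals of the last pair overlapped (6253 to 6539 CPM and 6001 to 6861 CPM). There too the Myc-only cells exceeded the triad-only cells in each library (6605 against 5073 CPM, 6650.3 against 5156 CPM, 6222 against 4456 CPM and 5899 against 5086 CPM), with intervals apart. At full depth in library 3 the triad-only cells (3731 to 4250.3 CPM) could not be told from cells with neither (3848 to 3961 CPM). At full depth, within Myc-zero cells the triad gave a log2 ratio of 0.23, and within triad-zero cells Myc gave 0.61.

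The authors' second table holds cells they placed in G1, the growth phase before DNA synthesis, and 1042 of 8273 cells stand outside it. In these, the summed members were at 6863, 6535, 3471 and 5977 CPM in libraries 1 to 4, against 5943, 6625, 4561 and 5857 CPM in G1-table cells. The outside cells were higher in libraries 1 and 4 and lower in libraries 2 and 3, and the ratio over libraries was 1.02-fold (log2 0.03, 0.01 to 0.05). Its sign was not stable: it reversed under 6 of 15 alternatives, among them -0.28 within depth groups, -0.20 without cells of over 3 times their library's median UMIs and -0.04 without library 1. Of 31 members 1 was called higher and 1 lower, where 7.38% and 3.35% of all genes were. The median log2 ratio was -0.19 for the members and -0.05 for all genes.

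Ran was the member called higher: 1125, 1089, 395 and 1114 CPM outside against 498, 563, 333 and 503 CPM in the G1 table, or 2.04-fold (log2 1.03, 0.98 to 1.07). Its call was lost without the possible double-positive thymocytes (log2 1.01) and with every cell counted alike (0.72). Both ratios still passed the 1.5-fold asked. With all cells, library 3 had the smallest Ran difference (log2 0.25). Without cells holding 3 or more UMIs over a list of G2 and M phase genes Ran was lower instead (log2 -0.64). Rrp9 was the member called lower, at 25.7, 32.4, 13.6 and 18.2 CPM against 35.5, 40.7, 35.6 and 39.5 CPM (log2 -0.60), and it missed the call without library 3 (-0.54) or library 4 (-0.47) and after thinning (-0.39). Erythroid markers, summed over 4 hemoglobin genes, were at 1898 CPM outside and 12.7 CPM in the G1 table. Of the outside hemoglobin UMIs, 10432 were in library 3, where 1 cell held 10 or more, and the outside cells of libraries 1, 2 and 4 held 0, 0 and 2. Without library 3 the log2 ratio of the summed members was 0.06. Double-positive markers were at 118 CPM outside and 71.3 CPM in the G1 table, and their part in these differences was not tested.

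The outside cells were split at 3 UMIs over the G2 and M phase list, a cut that a deep cell passes more easily. The 410 cells with 3 or more UMIs over the G2 and M phase list had a median of 9519 UMIs and 2.32% mitochondrial UMIs, and held the members at 7512, 7006, 6833 and 6659.6 CPM. In them Ran was 2.52-fold higher than in the G1 table and was the 1 member called higher of 31, where 10.7% of 7962 genes were, and Ppan (log2 -0.60) was the 1 called lower, where 12.4% were. Library 3 had 9 such cells. The other 632 cells had a median of 2075 UMIs and 4.71% mitochondrial UMIs, and held the members at 4179, 4565, 2774 and 3787 CPM.

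These 632 cells were below the G1 table in every library, by a log2 ratio of -0.59 (-0.63 to -0.55), and 14 of 30 members were called lower, where 4.54% of 7732 genes were. The 14 were Nop16, C1qbp, Dkc1, Srm, Gar1, Rrp9, Ran, Wdr12, Nme1, Fbl, Hspd1, Apex1, Npm1 and Eif5a. Nop16 was at 15.9 against 38.0 CPM (log2 -1.18) and C1qbp at 66.3 against 139.7 CPM (log2 -1.01). Depth and mitochondrial share moved with this difference, and their part in it was not tested. In the G1 table, 211 cells also held 3 or more of those UMIs, with the members at 8572, 10086, 10567 and 9242 CPM at a median of 9105 UMIs, library 3 with 4 such cells. These levels were above those of the like cells outside the table in each library.

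Counts of calls in other gene lists are read against all genes tested, of which 3.61% were called higher with the triad, 4.23% with Myc and 7.38% outside the G1 table, and 2.78%, 3.43% and 3.35% lower. Of 67 other ribosome biogenesis factors with enough UMIs, 21 were called higher with the triad (median log2 ratio 0.40) and 28 with Myc (0.53), and 0 were called lower in either. Grwd1, which chaperones a large-subunit protein, was 2.26-fold higher with the triad and 2.35-fold with Myc, and Bysl, a small-subunit factor, 2.11-fold and 1.94-fold. Rrp1b was 1.89-fold and 2.27-fold higher. Of 23 genes of RNA polymerase I and III, 2 were called higher and 1 lower with the triad, and 3 higher and 0 lower with Myc, among them Polr3d (1.93-fold and 2.14-fold).

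The ribosomal proteins themselves were called in no comparison. None of the 80 cytosolic ribosomal protein genes with enough UMIs was called in the triad, Myc or G1 comparison, and their median log2 ratios were -0.04, 0.04 and -0.19. Rps27l had the largest ratio in the triad comparison, 1.13-fold, and Rps15a was at 6533 against 7231 CPM. They carried 29.8% of the UMIs of triad-positive and 30.7% of triad-zero cells, and 31.0% and 30.4% in the Myc split.

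Several lists held so few calls that their share was near that of all genes, as with 1 of 20, 2 of 23 or 0 of 10, and such a count is no result about the list. In the nucleotide, polyamine and hypusine list, 1 of 20 genes was called higher with the triad (Ppat, the first enzyme of purine synthesis, 1.58-fold) and 4 with Myc (Ppat 1.77-fold, Ctps 1.74-fold, Gart 1.63-fold and Umps 1.61-fold). Of 20 translation factors 3 were called higher in each comparison, with Eef1e1 highest (1.91-fold and 1.99-fold). Of 10 nuclear transport genes 0 were called with the triad, 2 with Myc (Rcc1 1.51-fold and Ranbp1 1.56-fold) and 6 outside the G1 table. Of 13 chaperones, 0 were called with the triad and 2 with Myc (Hspa9 and Hsph1).

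In the MYC, MAX and MXD network, Mxd4, which encodes a MAX partner that opposes MYC, was lower in both comparisons: 101 against 179 CPM with the triad (log2 -0.79) and 110.4 against 191 CPM with Myc (-0.75). Of 12 quiescence and egress genes, 5 were called lower with the triad and 7 with Myc. Txnip, an inhibitor of glucose uptake, was at 50.2 against 139.5 CPM with the triad. Of 19 receptor and NF-kB response genes 17 were called higher with the triad and 12 with Myc. Of 18 S phase genes 0 and 3 were called higher in these comparisons and 14 outside the G1 table, and of 17 G2 and M phase genes 0, 0 and 17. None of the 13 mitochondrial transcripts was called.

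Markers of other cells differed between the states as follows. Erythroid markers were at 5.29 CPM in triad-positive and 366 CPM in triad-zero cells, and at 12.1 and 430 CPM in Myc-positive and Myc-zero cells. In library 3 the triad-zero cells were at 2015 CPM and the Myc-zero cells at 2138 CPM, and the same single cell, with 11162 UMIs in all, was the only one in either group of library 3 with 10 or more hemoglobin UMIs. The 7 double-positive markers summed to 30.7 CPM in triad-positive and 85.2 CPM in triad-zero cells, and to 49.0 and 89.1 CPM in Myc-positive and Myc-zero cells, with 4 and 2 of them called lower. The 5 markers found for natural killer, NKT or gamma delta lineages summed to 273 against 170.2 CPM with the triad, and to 289 against 146 CPM with Myc, with 1 called higher, and Ncr1 was at 0 in each state. In triad-positive cells Il2ra, the IL-2 receptor alpha chain, was at 227 against 139.6 CPM and was called higher, and Foxp3 was at 8.72 against 13.9 CPM and was called lower. The part of these cells in the member differences was not tested.

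The members varied together from cell to cell. In the 7447 thinned cells, each member's correlation with the summed other members was taken within each library and the median of the 4 libraries was used. These correlations describe cells that share a library and 1 depth, and they carry no test. The median over the members was 0.29, from 0.10 for Cad to 0.51 for Eif5a, and the median over 8062 genes was -0.003 with a 95th percentile of 0.13. The abundant Eif5a (0.51), Nme1 (0.50), Ncl (0.45), Npm1 (0.44), Ran (0.42) and Nhp2 (0.42) ranked high, as did Srm (0.42), and 16 members were among the first 50 genes. Scarce members such as Polr1b (0.12), Nop14 (0.14) and Pes1 (0.15) had low values, as sparse counts allow.

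Outside the members and ribosomal proteins, the 10 genes most like the sum were Mif (0.58), Hsp90ab1 (0.47), Ptma (0.46), Ranbp1 (0.44), Hsp90aa1 (0.43), Eif4a1 (0.41), Pa2g4 (0.40), Set (0.40), Ppia (0.39) and Atp5g1 (0.37). Mif, a cytokine-like protein, ranked first of all genes. Myc reached 0.12, Irf4 0.06, Nr4a3 0.02 and Egr2 -0.04, and the ribosomal protein genes had a median of 0.01. In G1-table cells alone the members' median was also 0.29.

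In the authors' log2 table, which holds G1 cells only, the mean value was higher in triad-positive cells in all 4 libraries for 28 of the 32 members (87.5%), against 16.4% of its 9571 genes. Nop14, Pes1, Rrp12 and Cad were the exceptions. The gap was 0.27, 0.17, 0.22 and 0.30 log2 units for Ncl in libraries 1 to 4. A gap of any size in this direction counted, with no fold asked. In the G1 table the median was 3963 UMIs in triad-positive and 3111 in triad-zero cells. These values were not thinned, and the part of depth in the count of 28 was not tested.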

How the data were processed

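Single-cell 3′ libraries from 4 thymic Treg samples were read from 2 deposited tables. The deposited counts are whole UMI counts for 27998 genes in 8273 cells. The build was mm10 and the tools included Cell Ranger 2.0.2, CASAVA 2.20 and R 3.4.1, per the submitters' processing notes. How cells were filtered was not stated. The other table has log2 values that the authors deposited for 7231 G1 cells and 9571 genes.

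The members and gene lists were chosen with earlier results of these data known. States were compared by the Mantel-Haenszel ratio of CPM over the 4 libraries, with 0.5 UMIs added and a 95% counting interval. That interval, which the calls use, leaves out the spread from cell to cell. CPM printed beside a ratio are per library or plain sums, so their quotient can differ from it. Exact intervals are Poisson for CPM and Clopper-Pearson for shares. Thinning drew 1811 UMIs, the 10th percentile of depth, and took each cell's state from the drawn UMIs. No doublets were removed.

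Named genes are all 32 members, Nr4a3, Egr2, Irf4 and Myc, up to 4 genes per list with the largest triad ratio, and the 10 genes most correlated with the sum. Thinned values of single split genes, levels by depth group and the thinned crossing of triad and Myc were added after seeing the data. So were hemoglobin by library and the split of cells outside the G1 table. The contrast was tested on simulated counts. Scripts ran in Python 3.11.15 with scipy 1.17.1, numpy 2.4.6, pandas 2.3.3 and matplotlib 3.10.9, and edgeR 4.0.16 under R 4.3.3 gave scaling factors only.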

Additional observations from a re-analysis of the deposited data

How the results depend on the processing

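No paired analysis was possible because no label ties a library to a sample and no test over samples was made. Values are log2 ratios of the summed members, then members called higher or lower. In the triad comparison (0.40, 13 higher, 0 lower) the ratio was 0.36 with trimmed mean scaling, 0.38 with totals without mitochondrial and ribosomal protein genes, 0.10 after thinning (2 higher), 0.23 within depth groups, 0.30 without cells of over 3 times their library's median UMIs, 0.46 without cells with 3 or more G2 and M phase UMIs, 0.45 in G1-table cells and 0.23 in Myc-zero cells. It was 0.43 for Nr4a3, 0.71 for Irf4 and reversed to -0.05 for Egr2. Leaving out a library gave 0.36 to 0.46 and 12 to 13 higher. A 2-fold rule called 5 and a looser fold rule 25, and 28 were higher in the authors' log2 table.

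Outside the G1 table (0.03, 1 higher, 1 lower) the sign was not stable. The ratio was 0.06 with median-of-ratios scaling (0 lower) and 0.01 with trimmed mean scaling (2 lower). It reversed to -0.04 with totals without mitochondrial and ribosomal protein genes (4 lower), -0.28 within depth groups (7 lower), -0.08 with every cell counted alike (2 lower), -0.20 without cells of over 3 times the median (5 lower) and -0.53 without cells with 3 or more G2 and M phase UMIs (0 higher, 11 lower). With only such cells, added after seeing the data, it was 0.19. Leaving out a library gave -0.04 to 0.07, 1 to 2 higher and 0 to 4 lower. Thinning called 0 lower, leaving out possible double-positive cells 0 higher, the 2-fold rule 0 lower and the looser fold rule 6.

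In the Myc comparison (0.64, 25 higher, 0 lower) the ratio was 0.67 with median-of-ratios scaling, 0.40 after thinning (13 higher), 0.37 within depth groups (14 higher), 0.62 with every cell counted alike, 0.53 without cells of over 3 times the median, 0.68 without cells with 3 or more G2 and M phase UMIs, 0.70 in G1-table cells, 0.81 for 2 or more Myc UMIs and 0.61 in triad-zero cells. Leaving out a library gave 0.60 to 0.68 and 22 to 23 higher, and the 2-fold rule called 7. No alternative with a count of calls had a member lower in the triad or Myc comparison. The cause of these shifts was not tested. With 1 library per sample there is no replicate error, and members under 200 UMIs, such as Rrp12, could not be read at this depth.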
